A study of Mus musculus with 23 samples.

Results

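The miRNAs described here are both arms of miR-124 and of miR-9, and the guide arm of miR-128, 5 of the 1915 mature miRNA names counted in each library. They were found by their exact names, and 5 of 5 had reads in 23 of 23 libraries. Small RNA was sequenced from dissected brain regions of C57BL/6 mice that lack Cdr1as and of wild type C57BL/6 mice. Cdr1as is a circular RNA of neurons that carries many binding sites for miR-7. There were 3 knockout (KO) and 3 wild type (WT) libraries of the cerebellum, of the cortex and of the olfactory bulb. The hippocampus had 2 KO libraries, numbered 2 and 3, and 3 WT libraries. The labels give neither age nor sex. Nothing in them ties a library to an animal, so 2 libraries of 1 group, or of 2 regions, could stem from 1 mouse, and the p-values cover only the spread between these libraries, which may be technical.

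MiRNAs are short RNAs that guide Argonaute proteins to messenger RNAs, mainly through bases 2 to 8, called the seed. Each precursor hairpin gives an arm from its 5′ side and an arm from its 3′ side. The arm that is kept in Argonaute is the guide, and the other, the passenger, is mostly degraded. MiR-124 is a classic neuronal miRNA that holds down non-neuronal transcripts, with miR-124-3p as its guide. MiR-9 acts in neural progenitors and in neurons, with miR-9-5p as its main guide, and its other arm miR-9-3p also has reported functions. MiR-128 is enriched in neurons and is known as a regulator of neuronal excitability.

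The mature sequences are shown with the seed in capitals, because the seed decides which miRNAs share targets and because identical copies from several genes cannot be told apart by sequencing. They are RefSeq's, with positions on GRCm38.p6, and 3 of the 5 members matched that table. The arms of miR-9 and miR-128 read:
miR-9-5p: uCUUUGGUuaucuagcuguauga
miR-9-3p: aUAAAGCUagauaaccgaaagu
miR-128-3p: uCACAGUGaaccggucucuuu
miR-128-1-5p: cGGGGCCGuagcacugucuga
miR-128-2-5p: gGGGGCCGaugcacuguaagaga

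The seeds of miR-9-5p, miR-9-3p and miR-128-3p were each shared with 0 other named miRNAs in that table. Both miR-9 arms have the same sequence in 3 precursors, Mir9-1 (chr3:88215598-88215686, plus strand, in an intron of the long noncoding RNA gene Gm3764), Mir9-2 (chr13:83738814-83738885, plus strand, over an exon of C130071C03Rik) and Mir9-3 (chr7:79505264-79505353, plus strand, in an intron of Mir9-3hg). MiR-128-3p has the same sequence in 2 precursors, Mir128-1 (chr1:128202361-128202430, plus strand, in an intron of the protein-coding gene R3hdm1) and Mir128-2 (chr9:112118636-112118711, minus strand, in an intron of Arpp21). The passenger arms of these precursors share the seed GGGGCCG but differ elsewhere, with an edit distance of 7, so they can be counted apart. MiR-124 comes from 3 genes in the GENCODE annotation, Mir124a-1 on chromosome 14 and Mir124a-2 on chromosome 3, each over an exon of its long noncoding host gene, and Mir124a-3 on chromosome 2, for which 0 host genes were found in that annotation. The counts therefore sum all precursors of an arm, and the share of each gene in a guide's reads was not measured.

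Total counts per library ran from 2328929 in cortex KO 3 to 13070794 in olfactory bulb WT 1. MiR-9-5p was among the most abundant miRNAs, at rank 2 or 3 in every library. MiR-128-3p ranked 5 to 24 (median 7) and miR-124-3p ranked 7 to 15 (median 10). The passenger arms were rarer, with miR-9-3p at rank 54 to 95 and miR-124-5p at rank 132 to 196. The smallest count behind any member's value was 380 reads, for miR-124-5p. Cdr1as itself is not measured in such libraries, so its loss cannot be checked. As a check of the comparison, miR-7a-5p, the miRNA that Cdr1as binds, fell by 1.07 on the log2 scale in KO against WT over the mean of the 4 regions (SE 0.13, adjusted p = 1.72e-05 by the quasi-likelihood test of edgeR). Within single regions its fall passed by that test in the cortex alone (adjusted p = 0.00801). It did not pass in the cerebellum (adjusted p = 0.325), the hippocampus (0.0509) or the olfactory bulb (0.365).

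Levels are in CPM, counts scaled to a common library total, on library sizes adjusted by TMM, a scaling that sets the bulk of miRNAs level between libraries. MiR-124-3p, the neuronal guide, was highest in the cerebellum and the olfactory bulb and lowest in the hippocampus. It was at 25280, 22957 and 28761 CPM in KO cerebellum, against 22614, 27345 and 30543 CPM in WT cerebellum. In the cortex it was at 13685, 13087 and 12226.5 CPM in KO, against 13589, 13291 and 14602 CPM in WT. It was at 10488 and 11197 CPM in KO hippocampus, against 11954, 11651 and 11967 CPM in WT hippocampus. The genotypes overlapped in the cerebellum and cortex, and both hippocampus KO libraries lay below the 3 WT libraries. Olfactory bulb libraries had 22496, 18810 and 21917 CPM in KO, against 21494, 23604 and 24736 CPM in WT. The highest region exceeded the lowest 2.37-fold in KO and 2.26-fold in WT.

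MiR-124-5p, the passenger arm, was likewise high in the cerebellum and olfactory bulb and lowest in the hippocampus, at far fewer reads than the guide. It was at 217, 213 and 212 CPM in KO cerebellum, against 233, 251 and 257 CPM in WT cerebellum. In the cortex it was at 132.3, 126.0 and 123.8 CPM in KO, against 132.9, 146.0 and 118.6 CPM in WT. It was at 105 and 97.8 CPM in KO hippocampus, against 116, 127 and 123 CPM in WT hippocampus. Every KO library lay below every WT library in the cerebellum and the hippocampus, while the genotypes overlapped in the cortex. They overlapped in the olfactory bulb as well, with 201, 220 and 235 CPM in KO, against 235, 238 and 204 CPM in WT.

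MiR-9-5p was highest in the olfactory bulb and lowest in the cortex and hippocampus. It averaged 122617 ± 584 CPM in KO cerebellum and 123907 ± 12136 CPM in WT cerebellum (SD, n = 3 each). In the cortex it averaged 75494 ± 7606 CPM in KO and 72889 ± 1907 CPM in WT (SD, n = 3 each). In the hippocampus it was at 88301 and 84457 CPM in KO, against 81669, 86686 and 65941 CPM in WT. Hippocampus KO 2 lay above the 3 WT libraries, KO 3 lay below WT 2, and hippocampus WT 3 was the lowest. In the olfactory bulb it was at 161935, 133951 and 149478 CPM in KO, against 142705, 149684 and 150918 CPM in WT. Its highest region exceeded its lowest 1.97-fold in KO and 2.03-fold in WT.

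MiR-9-3p was more variable between libraries. It averaged 1874 ± 121 CPM in KO cerebellum and 1839 ± 176 CPM in WT cerebellum (SD, n = 3 each). In the cortex it was at 1222, 1160 and 566 CPM in KO, against 1134, 1120 and 930 CPM in WT. The value of 566 CPM belongs to cortex KO 3, the library with the fewest reads, where it rests on 1737 reads. It was at 1280 and 1127 CPM in KO hippocampus, against 1326, 1254 and 1243 CPM in WT hippocampus. Its olfactory bulb libraries averaged 1592 ± 242 CPM in KO and 1770 ± 144 CPM in WT (SD, n = 3 each).

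MiR-128-3p had another order, with the cortex and olfactory bulb high, the hippocampus between and the cerebellum low. It was at 12004, 11368 and 11723 CPM in KO cerebellum, against 10923, 11869 and 10809 CPM in WT cerebellum. In the cortex it was at 28492, 28251 and 26108 CPM in KO, against 26613, 29077 and 27522 CPM in WT. In the hippocampus it was at 17788 and 22888 CPM in KO, against 20090, 16885 and 15030 CPM in WT. Every cerebellum library lay below every library of the other 3 regions, in both genotypes. In the olfactory bulb it was at 27657, 24411 and 25306 CPM in KO, against 27214, 25522 and 24173 CPM in WT. Its passenger miR-128-1-5p was at 25.2 ± 0.9 CPM in KO cerebellum and 20.9 ± 0.8 CPM in WT cerebellum, against 250 ± 38 CPM in KO cortex and 219 ± 14 CPM in WT cortex (SD, n = 3 each). The highest region thus exceeded the lowest 9.90-fold in KO and 10.4-fold in WT for miR-128-1-5p, and 2.36-fold in KO and 2.48-fold in WT for miR-128-3p. MiR-128-2-5p had 0 to 2 reads per library and was at 0 in 10 libraries.

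**Figure D1:**
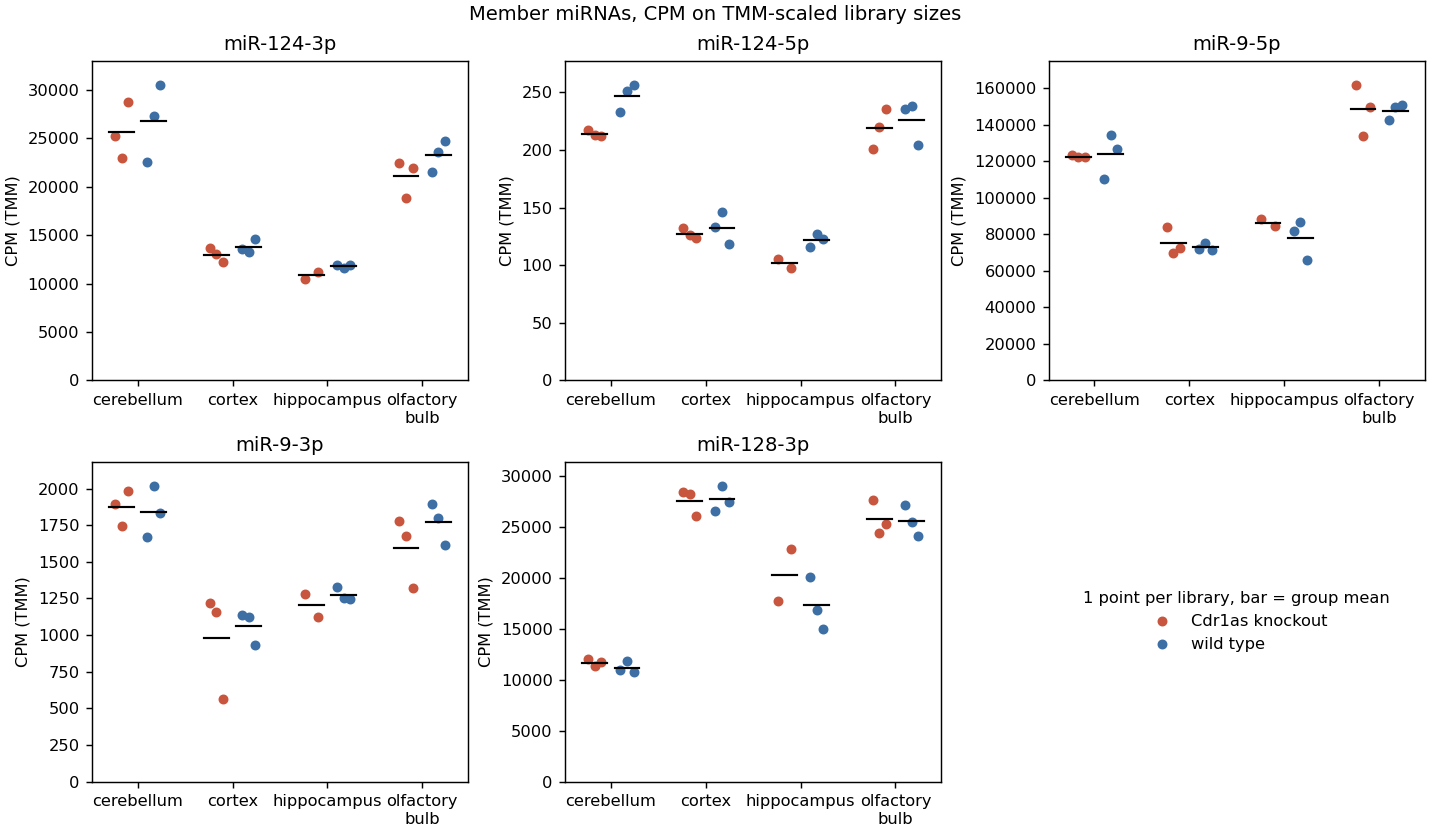
Level of each member in CPM on TMM-scaled library sizes (vertical axes, linear, from 0) in the 4 regions, with 1 point per library, KO left of WT, and a bar at the group mean. MiR-124 and miR-9 are high in the cerebellum and olfactory bulb, miR-128-3p is low in the cerebellum, and the genotypes lie close together. With library size only as the scaling, miR-9-5p is nearly level. Both miR-124 arms in the olfactory bulb are then no longer above the geometric mean of the other regions.

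Each region was then set against the geometric mean of the other 3 regions within a genotype, with p-values from edgeR's quasi-likelihood test and Benjamini-Hochberg adjustment over the 669 miRNAs tested. All 5 members passed the filter on low counts. In the cerebellum 5 of 5 members passed the threshold in KO, where 60.5% of all miRNAs tested did, and 5 of 5 in WT, where 64.3% did. Regional differences were thus common among all miRNAs. In both genotypes 4 members were higher and 1 was lower, while of all miRNAs 31.4% were higher and 29.1% lower in KO, and 32.7% higher and 31.5% lower in WT. MiR-124-3p was higher in the cerebellum by 0.84 on the log2 scale in KO (SE 0.09, adjusted p = 7.98e-08) and by 0.78 in WT (SE 0.09, adjusted p = 1.43e-07). MiR-128-3p was lower there, with log2 differences of -1.06 in KO (SE 0.10, adjusted p = 7.40e-09) and -1.04 in WT (SE 0.10, adjusted p = 6.24e-09). It was the only one of the 5 past 2-fold in the cerebellum, as were 33.0% of all miRNAs in KO and 34.2% in WT. MiR-124-5p was higher by 0.60 in KO and 0.68 in WT, miR-9-5p by 0.31 in KO and 0.39 in WT, and miR-9-3p by 0.60 in KO and 0.46 in WT; with library size only the miR-9 calls were lost in both genotypes, at 0.02 in KO and 0.00 in WT for miR-9-5p and 0.31 in KO and 0.07 in WT for miR-9-3p. The WT call of miR-9-3p was lost without cerebellum WT 2 (adjusted p = 0.0734), and over the other alternatives its adjusted p ran from 0.000177 to 0.727, the highest with library size only. Summed red blood cell miRNAs (4 of 4 detected) moved with the cerebellum, at 34001 to 38431 CPM in KO and 32107 to 47230 CPM in WT, against 3713 to 10478 CPM in the other KO regions and 3668 to 10230 CPM in the other WT regions. Summed choroid plexus miRNAs (8 of 8 detected) were at 10360 to 14240 CPM in KO cerebellum and 11182 to 18519 CPM in WT cerebellum, against 1966 to 4901 CPM in the other KO regions and 2073 to 13159 CPM in the other WT regions. The part of both lists in the result was not tested. In such bulk tissue, fewer cells of a type and less RNA per cell cannot be told apart.

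In the cortex 5 of 5 members passed in KO, where 46.3% of all miRNAs did, and 5 of 5 in WT, where 50.5% did. In both genotypes 1 member was higher and 4 were lower, while of all miRNAs 23.2% were higher and 23.2% lower in KO, and 26.9% higher and 23.6% lower in WT. MiR-128-3p was higher in the cortex, by 0.59 in KO (SE 0.09, adjusted p = 1.75e-05) and by 0.70 in WT (SE 0.09, adjusted p = 1.71e-06). The lower ones included miR-9-5p, which differed by -0.62 in KO and -0.63 in WT, against -0.10 in KO and -0.10 in WT with library size only, where the calls were lost. MiR-124-3p differed by -0.47 in KO and -0.50 in WT, but on plain library sizes these became 0.05 and 0.04 and were not called. Summed olfactory bulb miRNAs (8 of 8 detected) were at 141 to 445 CPM in KO cortex and 3676 to 6802 CPM in WT cortex, against 218992 to 393962 CPM in KO olfactory bulb and 271194 to 300792 CPM in WT olfactory bulb. Their part in the WT cortex values was not tested.

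In the hippocampus 3 of 5 members passed in KO, where 38.1% of all miRNAs did, and 3 of 5 in WT, where 46.3% did. In both genotypes all 3 were lower, while of all miRNAs 20.5% were higher and 17.6% lower in KO, and 24.8% higher and 21.5% lower in WT. MiR-124-3p differed by -0.82 in KO (SE 0.11, adjusted p = 8.78e-06) and -0.79 in WT (SE 0.10, adjusted p = 1.04e-06). MiR-124-5p differed by -0.84 in KO and -0.67 in WT; with library size only it was at -0.39 in KO (adjusted p = 0.0137) and at -0.13 in WT, where the call was lost (adjusted p = 0.285). MiR-9-5p differed by -0.36 in KO, a call lost without hippocampus KO 2 (adjusted p = 0.0688, and 0.00221 to 0.378 over the other alternatives), and by -0.50 in WT; with library size only these became 0.09 and 0.04 and were not called. MiR-9-3p differed by -0.25 in both genotypes and did not pass, with 95% intervals of -0.64 to 0.14 in KO and -0.58 to 0.08 in WT; without cortex KO 3 it passed in both, at -0.35 in KO and -0.25 in WT. MiR-128-3p did not pass either, at 0.00 in KO (95% interval -0.21 to 0.22), though with library size only it passed as higher in KO at 0.44 (adjusted p = 0.000464). In WT it was at -0.20 (-0.39 to -0.02, adjusted p = 0.0732). The WT difference passed without hippocampus WT 1 (adjusted p = 0.0129) and over the other alternatives had an adjusted p of 0.00131 to 0.587; with library size only it passed as higher, at 0.33.

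In the olfactory bulb 4 of 5 members passed in KO, where 46.5% of all miRNAs did, and 5 of 5 in WT, where 51.3% did. On TMM scaling all that passed were higher, while of all miRNAs 24.8% were higher and 21.7% lower in KO, and 26.8% higher and 24.5% lower in WT. MiR-9-5p was higher by 0.68 in KO (SE 0.09, adjusted p = 1.87e-06) and by 0.73 in WT (SE 0.09, adjusted p = 3.77e-07), calls lost with library size only, at -0.00104 in KO and 0.06 in WT. MiR-124-3p was higher by 0.46 in KO and 0.51 in WT, and miR-128-3p by 0.46 in KO and 0.55 in WT; with library size only all 4 values were negative, and with upper quartile scaling the 2 KO calls were lost. MiR-9-3p was higher by 0.29 in KO, which did not pass (adjusted p = 0.144), and by 0.39 in WT (adjusted p = 0.0422). With library size only the KO value turned to -0.392 and passed as lower (adjusted p = 0.0389). The WT call was then lost, at -0.291 (adjusted p = 0.105). That WT call was lost without any 1 of 7 libraries, namely cerebellum WT 1, cortex WT 3, hippocampus WT 3, hippocampus KO 3 and each of the 3 olfactory bulb WT libraries, with adjusted p between 0.0510 and 0.136.

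TMM factors ran from 0.62 to 1.41 and parted by region, with the cerebellum and olfactory bulb libraries below 1 and the cortex and hippocampus libraries above 1. On plain library sizes the median of all miRNAs moved to -0.28 in KO and -0.37 in WT for the cerebellum, 0.49 in KO and 0.52 in WT for the cortex, 0.44 in KO and 0.55 in WT for the hippocampus, and -0.70 in KO and -0.71 in WT for the olfactory bulb. The higher calls among all miRNAs were then 141 of 412 in KO and 134 of 442 in WT cerebellum, 302 of 344 in KO and 331 of 364 in WT cortex, 294 of 345 in KO and 352 of 410 in WT hippocampus, and 60 of 449 in KO and 66 of 468 in WT olfactory bulb. On TMM scaling they were 210 of 405 in KO and 219 of 430 in WT cerebellum, 155 of 310 in KO and 180 of 338 in WT cortex, 137 of 255 in KO and 166 of 310 in WT hippocampus, and 166 of 311 in KO and 179 of 343 in WT olfactory bulb. On plain library sizes miR-9-5p was nearly level, with group means between 97276 and 109603 CPM. MiR-124-3p in the olfactory bulb turned to -0.22 in KO (adjusted p = 0.0113) and -0.17 in WT (adjusted p = 0.0372), and miR-128-3p there to -0.21 in KO (adjusted p = 0.0317) and -0.13 in WT (adjusted p = 0.168). Relative to the median of all miRNAs, 20 of 20 KO values and 20 of 20 WT values kept their sign under all 5 scalings tried. A scaling moves the miRNAs of a library together, so this was largely set in advance and does not test the scalings. Olfactory bulb miR-124-3p was 0.48 to 0.50 above that median in KO and 0.54 to 0.55 above it in WT. Without reference to the median, miR-124-3p kept its sign and its call under the 5 scalings in the cerebellum, at 0.54 to 1.09 in KO and 0.38 to 1.06 in WT. It did so in the hippocampus too, at -0.84 to -0.37 in KO and -0.81 to -0.25 in WT. MiR-128-3p did likewise in the cerebellum, at -1.35 to -0.82 in KO and -1.43 to -0.78 in WT, and in the cortex, at 0.49 to 1.12 in KO and 0.47 to 1.23 in WT.

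**Figure D2:**
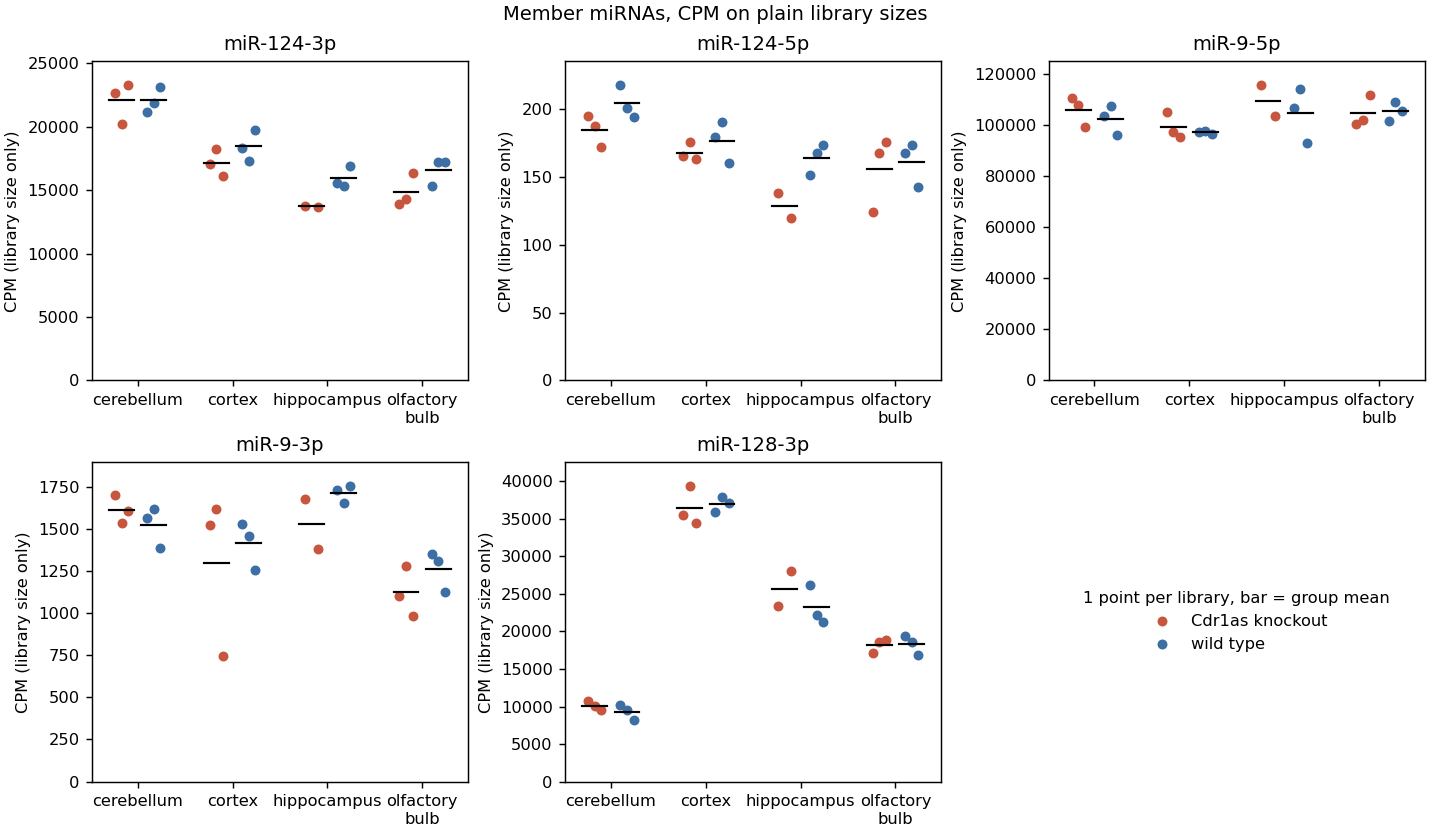
The same libraries with CPM on plain library sizes (vertical axes, linear, from 0), 1 point per library, KO left of WT, bar at the group mean. MiR-9-5p is nearly level, with group means between 97276 and 109603 CPM, while miR-124-3p still stands highest in the cerebellum and miR-128-3p still highest in the cortex and lowest in the cerebellum.

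The order of the regions in WT was taken from the 6 pairs of regions on TMM scaling. MiR-124-3p ran from the cerebellum through the olfactory bulb and cortex to the hippocampus, and its neighbours olfactory bulb and cerebellum (log2 difference -0.21, adjusted p = 0.129) and hippocampus and cortex (-0.22, adjusted p = 0.197) did not pass. The pair of olfactory bulb and cerebellum passed with library size only (-0.41, adjusted p = 0.000352), with upper quartile scaling (-0.51, adjusted p = 0.00426), and without cerebellum WT 1 or hippocampus KO 3 (adjusted p = 0.0273 and 0.0365). MiR-124-5p had the same order in WT, and the same neighbours did not pass (-0.13 and -0.12), except that olfactory bulb and cerebellum passed with library size only (-0.34, adjusted p = 0.0272) and with upper quartile scaling (-0.43, adjusted p = 0.00704). For miR-9-5p the olfactory bulb exceeded the cerebellum by 0.25 with an adjusted p of 0.0540, which fell below 0.05 with DESeq2's size factors, DESeq2, limma-voom, the removal of the olfactory bulb miRNAs, the replicate block and 7 of the leave-one-out fits. It did not pass between hippocampus and cortex (0.10, 95% interval -0.13 to 0.33). MiR-9-3p did not pass between olfactory bulb and cerebellum (-0.06, adjusted p = 0.830) or between hippocampus and cortex (0.26, adjusted p = 0.394), though hippocampus and cortex passed with upper quartile scaling (0.51, adjusted p = 0.0491). MiR-128-3p ran from the cortex through the olfactory bulb and hippocampus to the cerebellum, and of its 6 pairs that of the olfactory bulb and the cortex did not pass (-0.11, 95% interval -0.34 to 0.12); with library size only it passed, at -1.02 (adjusted p = 2.77e-08). On plain library sizes its olfactory bulb level instead fell below the hippocampus, at -0.345. That was a call in the opposite direction, as the adjusted p of this pair was at most 0.0172 over the alternatives. Of the 30 combinations of a member and a pair, 21 passed. Of all miRNAs, 62.6% passed between cortex and cerebellum, 57.7% between hippocampus and cerebellum, 20.0% between hippocampus and cortex, 55.5% between olfactory bulb and cerebellum, 53.2% between olfactory bulb and cortex, and 53.4% between olfactory bulb and hippocampus.

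Knockout was compared with wild type in each region to ask whether loss of Cdr1as goes with a change in these miRNAs. By edgeR's quasi-likelihood test 0 of 5 members passed in any region. All miRNAs passed at 0.149% in the cerebellum, 2.09% in the cortex, 0% in the hippocampus and 0.149% in the olfactory bulb. Summed olfactory bulb miRNAs were at 141 to 445 CPM in KO cortex and 3676 to 6802 CPM in WT cortex. Their part in the cortex calls was not tested. At an unadjusted p below 0.05, miR-124-5p passed in the hippocampus, where 5.83% of all miRNAs did, and 0 of 5 passed in the cerebellum, where 1.94% did, in the cortex, where 4.63% did, and in the olfactory bulb, where 2.99% did. DESeq2 and limma-voom also called 0 of 5 in each region after adjustment. The whole-table count of 0 in the hippocampus stood beside 39 miRNAs at an unadjusted p below 0.05, 3 calls by DESeq2 and 2 by limma-voom. In the cerebellum the replicate numbers were taken to pair the libraries, from the data and not the labels. With the number as a block the count over all miRNAs there was 4 in place of 1, with 0 of 5 members.

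The widest differences were those of the miR-124 passenger and of miR-128-3p in the hippocampus. MiR-124-5p differed by -0.26 in KO hippocampus (SE 0.12, adjusted p = 0.715) and by -0.20 in KO cerebellum (SE 0.10, adjusted p = 1). In both regions its KO libraries lay below its WT libraries without overlap, as was the case for 8.82% of all miRNAs in the hippocampus and 2.54% in the cerebellum. MiR-124-3p lay below without overlap in the hippocampus alone, at -0.13 (95% interval -0.39 to 0.13). In every other combination of member and region the groups overlapped. Of all miRNAs, 7.03% did not overlap in either direction in the cerebellum, 7.62% in the cortex, 16.9% in the hippocampus and 6.43% in the olfactory bulb. MiR-128-3p differed by 0.23 in the hippocampus (95% interval -0.02 to 0.49, adjusted p = 0.911). Choroid plexus miRNAs differed among these libraries, at 3284 and 3561 CPM in KO and 10405, 3065 and 13159 CPM in WT hippocampus (8 of 8 detected), and their part in these values was not tested.

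Over the mean of the 4 regions 0 of 5 members passed, where 1.49% of all miRNAs did; at an unadjusted p below 0.05 it was 1 of 5, miR-124-5p, where 5.83% of all miRNAs passed, and DESeq2 and limma-voom also called 0 of 5. MiR-124-5p differed by -0.14 (95% interval -0.25 to -0.03, unadjusted p = 0.0138, adjusted p = 0.460) and was lower in KO in 4 of 4 regions. MiR-124-3p differed by -0.11 (95% interval -0.23 to 0.01, adjusted p = 0.808) and was also lower in 4 of 4 regions. These directions hold on TMM scaling. Upper quartile scaling turned the cortex to 0.0549 for miR-124-3p and 0.0867 for miR-124-5p, and library size only turned miR-124-3p in the cerebellum to 0.000259. Some values of both arms also turned without 1 library. The arms share precursors and libraries, so they are not separate pieces of evidence. The intervals of the other members were -0.07 to 0.16 for miR-9-5p, -0.29 to 0.13 for miR-9-3p and -0.04 to 0.19 for miR-128-3p. These intervals leave room for changes of those sizes. The genotype effect differed between regions in 0 of 5 members (adjusted p = 0.996 for each, 0 of 5 at an unadjusted p below 0.05, as were 3.89% of all miRNAs, and 0 of 5 by DESeq2 and by limma-voom), where 1.64% of all miRNAs passed.

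**Figure D3:**
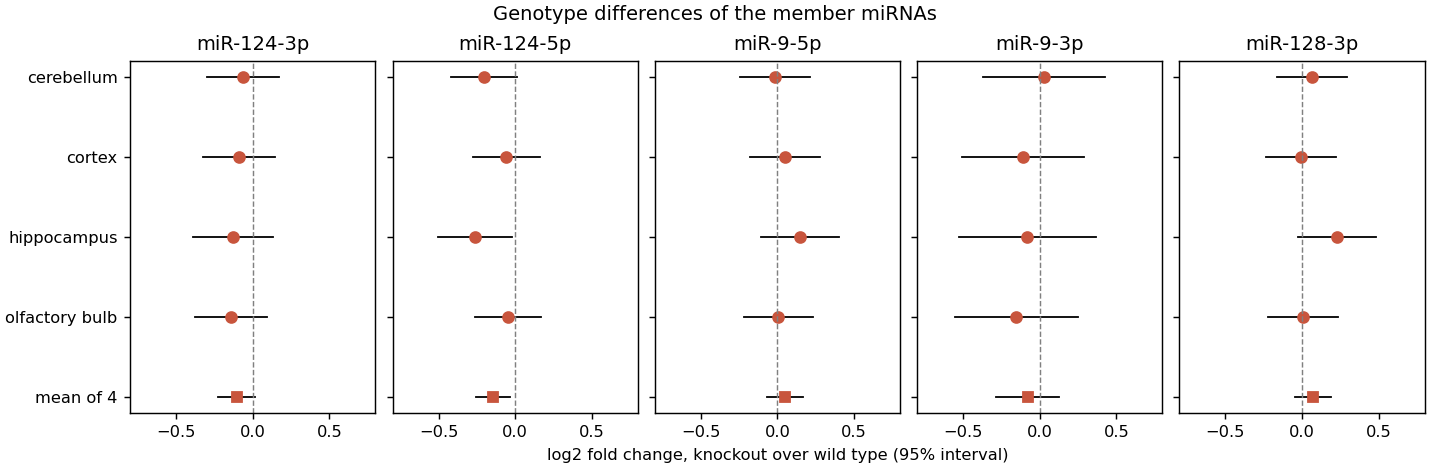
Log2 fold change of KO over WT with its 95% interval (horizontal axes) for each member in the 4 regions (circles) and for their mean (squares), from the edgeR fit on TMM scaling. Most intervals include 0; those of miR-124-5p in the hippocampus and over the mean of the 4 regions lie below 0 before adjustment for the 669 miRNAs tested.

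Ratios of counts within a library do not depend on the scaling. Small RNA ligation favours some ends over others, so a ratio gives reads and not molecules, and the same ratio is compared between libraries. For miR-124 the guide over the passenger had geometric means of 119 in KO and 108 in WT cerebellum, 102 and 105 in KO and WT cortex, 107 and 97.2 in KO and WT hippocampus, and 96.2 and 103 in KO and WT olfactory bulb. The libraries ran from 85.5 to 135, and KO and WT overlapped in 4 of 4 regions. Region made no difference that passed the exact permutation test, either among 11 KO libraries (adjusted p = 0.213) or among 12 WT libraries (adjusted p = 0.751); without olfactory bulb KO 1 the KO libraries passed (adjusted p = 0.0327). KO minus WT was 0.04 on the log2 scale over the mean of the regions (two-sided exact permutation test within regions, adjusted p = 0.597 over 5 ratios).

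For miR-9 the 5p arm over the 3p arm had geometric means of 65.5 in KO and 67.4 in WT cerebellum. In the cortex the ratio was 68.9, 60.2 and 128.02 in KO, against 63.5, 67.0 and 77.0 in WT. It was 69.0 and 75.0 in KO hippocampus, against 61.6, 69.1 and 53.0 in WT hippocampus. Cortex KO 3 stood apart from the other KO cortex libraries, and the other values of these regions overlapped. In the olfactory bulb it was 91.0, 79.8 and 113 in KO, against 75.3, 83.1 and 93.6 in WT, the highest region in both genotypes. The regions differed among WT libraries (exact permutation test, adjusted p = 0.0232), a call lost without hippocampus WT 3, olfactory bulb WT 2 or olfactory bulb WT 3. They did not pass among KO libraries (adjusted p = 0.344, and 0.0565 without cortex KO 3). KO minus WT was 0.15 (two-sided exact permutation test, adjusted p = 0.257).

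For miR-128 the guide was set over the sum of both passenger arms, nearly all of it miR-128-1-5p. The guide's reads sum both precursors, while the passenger's come almost only from Mir128-1. A shift in arm use and a shift in the share of the precursors thus cannot be told apart in this ratio. The ratio was 457, 456 and 472 in KO cerebellum, against 545, 559 and 502 in WT cerebellum. It had geometric means of 111 in KO and 127 in WT cortex, 150 in KO and 127 in WT hippocampus, and 199 in KO and 212 in WT olfactory bulb. Every cerebellum library lay above every library of the other regions in both genotypes. The regions differed among KO libraries (exact permutation test, adjusted p = 0.00152) and among WT libraries (adjusted p = 0.00162). In the cerebellum the 3 KO libraries lay below the 3 WT libraries (-0.21 on the log2 scale, two-sided exact p = 0.1, the smallest that 3 against 3 allows). There, 7.03% of all miRNAs had levels that did not overlap in either direction, and no such share was computed for ratios. The passenger miR-128-1-5p was at 26.2, 24.8 and 24.7 CPM in KO cerebellum, against 20.1, 21.2 and 21.5 CPM in WT cerebellum, and its log2 difference of 0.27 did not pass (SE 0.16, edgeR's adjusted p = 1). Over the mean of the regions KO minus WT was -0.06 (exact permutation test, adjusted p = 0.597), with a positive difference in the hippocampus.

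**Figure D4:**
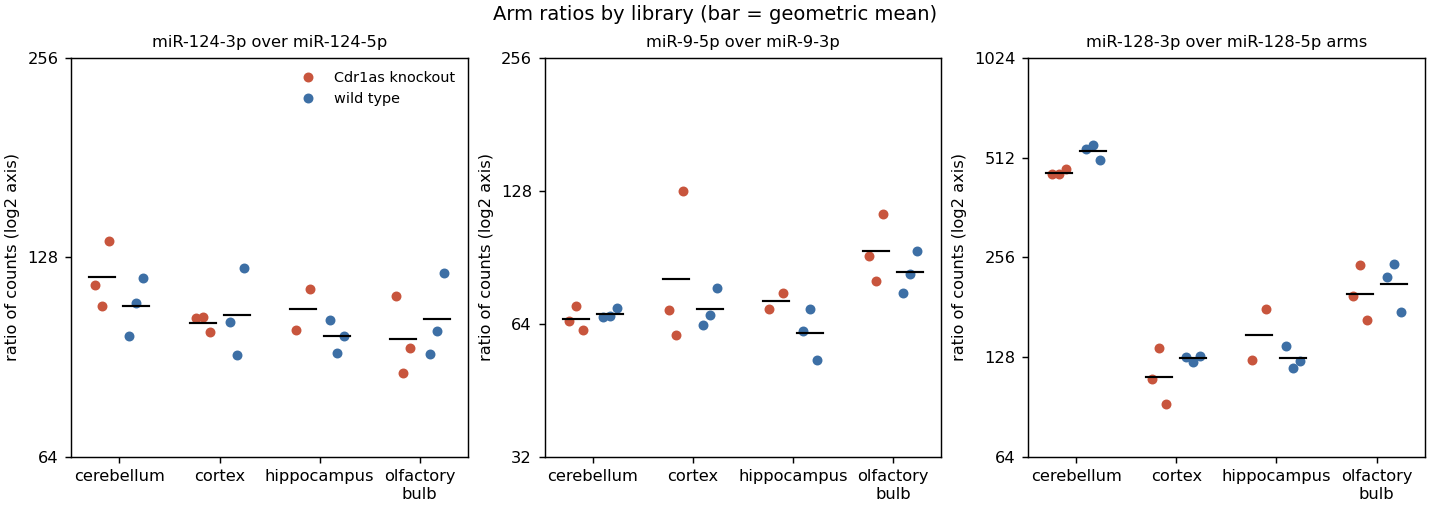
Ratio of guide to passenger counts (vertical axes, log2 scale) for miR-124, miR-9 and miR-128 in the 4 regions, 1 point per library, KO left of WT, bar at the geometric mean. The miR-124 ratio lies between 85.5 and 135 across regions, 1 KO cortex library reaches 128.02 for miR-9, and the miR-128 ratio is at 456 or above in the cerebellum and at 245 or below elsewhere. The miR-128 guide sums both precursors, while its passenger reads are almost all from Mir128-1.

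The guides were also set over each other. MiR-9-5p over miR-124-3p had geometric means of 4.80 in KO and 4.64 in WT cerebellum, 5.79 in KO and 5.27 in WT cortex, 7.97 in KO and 6.54 in WT hippocampus, and 7.04 in KO and 6.36 in WT olfactory bulb. The regions differed among KO libraries (exact permutation test, adjusted p = 0.000325) and among WT libraries (adjusted p = 0.0143). MiR-128-3p over miR-124-3p had geometric means of 0.458 in KO and 0.420 in WT cerebellum, 2.13 in KO and 2.01 in WT cortex, 1.86 in KO and 1.45 in WT hippocampus, and 1.23 in KO and 1.10 in WT olfactory bulb. Its regions differed too, with adjusted p = 0.000325 among KO and 0.000649 among WT libraries by the exact permutation test. When regions were exchanged only within a replicate number, 4 of 5 ratios still passed among WT libraries and 0 of 5 among KO libraries, where the smaller number of arrangements limits the p.

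Between genotypes, both of these ratios were higher in KO. MiR-9-5p over miR-124-3p was 7.20, 7.12 and 6.82 in KO olfactory bulb, against 6.64, 6.34 and 6.10 in WT olfactory bulb, and 8.42 and 7.54 in KO hippocampus, against 6.83, 7.44 and 5.51 in WT hippocampus. In those 2 regions the KO libraries lay above the WT libraries, and in the cerebellum and cortex they overlapped. The two-sided exact p within the region was 0.1 in the olfactory bulb, the smallest possible, and 0.2 in the hippocampus. Of the levels of all miRNAs, 6.43% did not overlap in either direction in the olfactory bulb and 16.9% in the hippocampus. MiR-128-3p over miR-124-3p was 1.70 and 2.04 in KO hippocampus, against 1.68, 1.45 and 1.26 in WT hippocampus, without overlap (two-sided exact p = 0.2), and the genotypes overlapped in the other 3 regions. Over the mean of the regions KO minus WT was 0.15 for miR-9-5p over miR-124-3p and 0.18 for miR-128-3p over miR-124-3p, higher in KO in 4 of 4 regions each (two-sided exact permutation test within regions over 80000 arrangements, p = 0.0112 and 0.0171, adjusted p = 0.0428 for both). The ratios share miR-124-3p, so they are not separate pieces of evidence. The calls rested on the regions and libraries included. Without the cortex both had an adjusted p of 0.0938, and without the hippocampus 0.142, with differences of 0.11 and 0.12. With all regions of a replicate number kept together the p was 0.2 for each. It did not reach 0.1, the smallest that 20 arrangements allow, and an adjusted p below 0.05 was out of reach. With genotypes exchanged within same-numbered pairs, which leaves out hippocampus WT 1, the adjusted p was 0.0195 for both ratios. Outside the cerebellum the numbers were not taken to pair KO with WT, so this exchange does not settle the calls. Both were also lost without any 1 of 14 libraries, namely cerebellum WT 2, WT 3, KO 1 and KO 2, cortex WT 1, WT 3 and KO 3, hippocampus WT 3, KO 2 and KO 3, and olfactory bulb WT 2, WT 3, KO 1 and KO 2. MiR-128-3p over miR-124-3p was lost without cortex KO 2 or hippocampus WT 2 as well. The adjusted p ran up to 0.152 without 1 library.

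**Figure D5:**
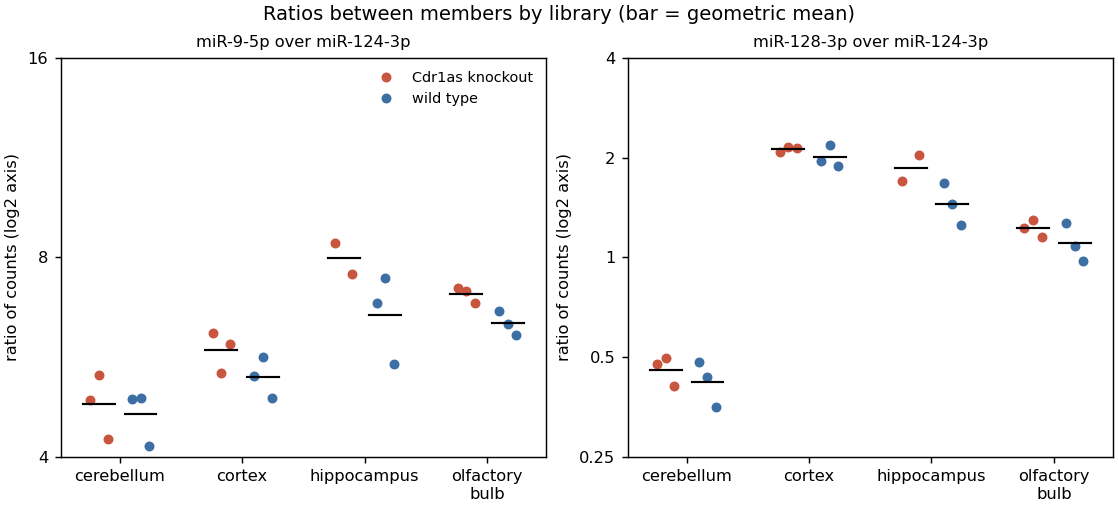
Ratio of miR-9-5p and of miR-128-3p to miR-124-3p counts (vertical axes, log2 scale) by region, 1 point per library, KO left of WT, bar at the geometric mean. Regions differ more than genotypes, and the KO bars stand a little above the WT bars in 4 of 4 regions in both panels.

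Other miRNAs of neurons also differed between regions. Of 11 listed (11 of 11 tested), 2 were higher and 7 lower in the cerebellum in KO, and 2 were higher and 7 lower in WT, with a median log2 difference of -1.25 in KO and -1.14 in WT, against 0.01 and 0.02 over all miRNAs. MiR-598-3p was higher there by 2.27 in KO and 2.53 in WT. MiR-137-3p, a regulator of neuronal maturation, differed by -2.83 in KO and -2.68 in WT, and miR-212-3p, a miRNA induced by neuronal activity, by -2.57 in KO and -2.39 in WT. In the cortex 5 were higher and 0 lower in KO, and 7 were higher and 0 lower in WT. Hippocampus counts were 3 higher and 2 lower in both genotypes. Those of the olfactory bulb were 3 higher and 3 lower in KO, and 3 higher and 4 lower in WT. Of all miRNAs, 31.4% were higher and 29.1% lower in KO cerebellum, and 32.7% and 31.5% in WT cerebellum. The shares were 23.2% higher and 23.2% lower in KO cortex, and 26.9% and 23.6% in WT cortex. Those of the hippocampus and olfactory bulb are given with the members. In the comparison of KO with WT by edgeR 0 of 11 passed over the mean of the regions, with 0 at an unadjusted p below 0.05. The median log2 difference was 0.04 in these 11, against 0.00 over all miRNAs, and the difference with the smallest p was that of miR-132-3p, also induced by neuronal activity, at 0.09 (SE 0.09, adjusted p = 0.9998).

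The miRNAs with the most similar profile over the 8 groups were sought among 197 with a mean of at least 100 CPM, by the root mean square distance between centred log2 group means. For miR-124-3p these were miR-16-5p (distance 0.06), miR-26b-5p (0.10) and miR-30a-3p (0.12), where the median over the 197 was 0.65. For miR-9-5p they were miR-181a-1-3p (0.07), miR-15a-5p (0.10) and miR-181c-3p (0.11), with a median of 0.63. For miR-128-3p they were miR-142a-5p (0.16), miR-431-5p (0.19) and miR-153-3p (0.21), with a median of 0.68. These distances describe 8 group means that share their libraries and their scaling.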

How the data were processed

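Per the labels' protocols, total RNA was extracted with TRIZOL and small RNA libraries were made with a TruSeq kit. The values are raw counts of reads for each mature miRNA, as the authors deposited them. The submitters' processing notes name mm9; which aligner, counter and miRNA annotation were used is not stated there. Depth was 2328929 to 13070794 counts per library. Sequences and positions are RefSeq's on GRCm38.p6, with host genes from GENCODE M21; 0 mm9 coordinates were converted.

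The analysis of the counts used edgeR 4.0.16 in R 4.3.3: filterByExpr (minimum count 10, minimum total 15; 669 of 1459 miRNAs with a count kept, at least 99.988% of reads), TMM, and 1 quasi-likelihood fit of 8 group means to 23 libraries, with Benjamini-Hochberg adjustment over 669 miRNAs and a threshold of 0.05. Levels are CPM computed from the counts. Ratios (0.5 added to each count) were tested by exact permutation of genotypes within regions, or of regions within a genotype, and adjusted over 5 ratios. Within 1 region the smallest possible p is 0.1. Fits were tested on simulated data. DESeq2 1.42.0, limma-voom (limma 3.58.1), other scalings, no filter, replicate blocks and leaving out each library were alternatives.

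Same-numbered KO and WT libraries deviated together in the cerebellum (correlations of their deviations 0.192 to 0.594, each over 0.1), so the numbers were taken to pair those libraries, by the data and not by the labels. Differently numbered KO and WT cerebellum libraries correlated at -0.562 to 0.2555, which overlaps that range, so the pairing is uncertain. Library pairs within a group differed beyond sampling noise (chi-square per degree of freedom 28.4 to 242 over 22 pairs). The labels name no molecular identifiers, so reads are not taken as separate molecules. The members, the lists and the tests were chosen with earlier results of these data known. Named miRNAs are the 5 members, their other arms, the 3 most similar profiles per guide, the other neuronal miRNAs with the smallest p, and miR-7a-5p.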

Additional observations from a re-analysis of the deposited data

How the results depend on the processing

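The members called in KO against WT stayed at 0 of 5 in each region, over their mean and in the difference between regions under every scaling, tool, filter, replicate block and left-out library tried; recording these comparisons by the members called was decided after the data were seen. Over all miRNAs the counts were 1 in the cerebellum (0 to 12 under the alternatives), 14 in the cortex (5 to 16), 0 in the hippocampus (0 to 20, and 0 to 8 without 1 library), 1 in the olfactory bulb (0 to 4), 10 over the mean (3 to 21) and 11 for the difference (2 to 31). The replicate block gave 4 in the cerebellum, 2 in the hippocampus and 2 in the bulb and changed 0 of the member calls there. Outside the cerebellum the numbers were not taken to pair KO with WT. Those correlations were 0.070 to 0.492 in the cortex, -0.258 to 0.060 in the hippocampus and -0.319 to 0.127 in the olfactory bulb. Across regions, same-numbered libraries of KO cortex and KO olfactory bulb correlated at 0.368, 0.460 and 0.390. Over all same-numbered pairs of regions the correlations ran from -0.165 to 0.460 in KO and from -0.528 to 0.3855 in WT. Whether such libraries share a mouse or a batch is not in the labels. On library size only, the members called were 3 in KO and 3 in WT cerebellum, 1 in KO and 1 in WT cortex, 1 in WT olfactory bulb and 12 in WT pairs, and with upper quartile scaling 2 in KO olfactory bulb. For the ratios, calls between KO and WT were 0 with the replicate block that keeps a number's regions together, 0 without the cortex and 0 without the hippocampus, 0 to 2 without 1 library, and calls among KO regions were 0 with regions exchanged within a number; both left-out regions and that exchange were chosen after seeing the data, as was the comparison with the median of all miRNAs. Signs turned as follows, in log2 differences. With library size only, KO cortex against the other regions was 0.0535 for miR-124-3p and 0.118 for miR-124-5p, and WT cortex 0.0358 and 0.00906. KO hippocampus was 0.0856 for miR-9-5p and 0.201 for miR-9-3p, and WT hippocampus 0.0424 and 0.295, with 0.331 for miR-128-3p. KO olfactory bulb was -0.218 for miR-124-3p, -0.0282 for miR-124-5p, -0.00104 for miR-9-5p, -0.392 for miR-9-3p and -0.214 for miR-128-3p, and WT olfactory bulb -0.170, -0.166, without a turn for miR-9-5p, -0.291 and -0.129. In WT pairs miR-9-5p was 0.0313 and miR-9-3p 0.171 (hippocampus against cerebellum), miR-124-3p -0.154, miR-124-5p -0.131 and miR-9-3p -0.165 (olfactory bulb against cortex), and miR-124-5p -0.0258, miR-9-3p -0.440 and miR-128-3p -0.345 (olfactory bulb against hippocampus). KO against WT was 0.000259 for miR-124-3p and 0.0475 for miR-9-5p in the cerebellum, and -0.00850 for miR-9-5p and -0.00507 for miR-128-3p in the olfactory bulb. With upper quartile scaling, KO against WT was 0.00342 for miR-9-5p in the cerebellum, 0.0549, 0.0867, 0.0249 and 0.137 for miR-124-3p, miR-124-5p, miR-9-3p and miR-128-3p in the cortex, and -0.0210 and -0.0167 for miR-9-5p and miR-128-3p in the olfactory bulb; WT hippocampus against cortex was 0.0214 and 0.123 for miR-124-3p and miR-124-5p, and WT olfactory bulb against cerebellum -0.0481 for miR-9-5p. In the cortex miR-128-3p was 0.00889 with DESeq2's size factors and 0.00891 with DESeq2. In the olfactory bulb miR-9-5p was -0.0208 with both, -0.0490 with no filter and -0.0186 in the fit within the region, and miR-128-3p -0.0173 with both, -0.0478 and -0.0151. KO hippocampus miR-128-3p was -0.00983 without the olfactory bulb miRNAs in the scaling and -0.00832 with limma-voom. Without 1 library, KO against WT ran from -0.174 to 0.0392 for miR-124-3p, -0.0911 to 0.0464 for miR-9-5p and -0.0390 to 0.0997 for miR-9-3p in the cerebellum. It ran from -0.126 to 0.0187 for miR-124-5p, -0.0312 to 0.103 for miR-9-5p, -0.292 to 0.169 for miR-9-3p and -0.0339 to 0.0361 for miR-128-3p in the cortex, and from -0.116 to 0.00914 for miR-124-5p, -0.0604 to 0.0670 for miR-9-5p and -0.0445 to 0.0414 for miR-128-3p in the olfactory bulb. KO hippocampus miR-128-3p ran from -0.212 to 0.188, and miR-9-3p in WT olfactory bulb against cerebellum from -0.114 to 0.0156. The causes were not tested beyond the shift of the median given with each scaling. Of the member results under a changed setting, 792 kept direction and call, 36 lost a call, 15 gained one and 52 turned, and without 1 library 2548 kept both, 52 lost a call, 13 gained one and 32 turned. Depth limits miR-124-5p most, at 380 reads or more.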
